A study of Mus musculus with 4 samples.

Results

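The genes of the unfolded protein response and the amino acid response were followed in induced regulatory T cells (induced Treg cells) labelled wild type (WT) or MSC KO. The set was a fixed list of 50 genes, matched by symbol to both deposited tables and kept where the mean over the 4 libraries was at least 1 FPKM (fragments per kilobase, normalised for sequencing depth). Of the 50 genes, 49 had a row of their own and 48 passed the filter, among 10603 genes tested out of 22144 symbols present in both tables. They fall into 8 regulators, 3 stress effectors, 9 enzymes of amino acid synthesis and one-carbon metabolism, 7 amino acid transporters, 8 cytosolic tRNA synthetases and 15 chaperones and folding factors of the endoplasmic reticulum (ER). Slc7a11, which encodes the cystine transporter subunit xCT, stayed under the filter. Aars, the alanyl-tRNA synthetase gene, was present only in a row shared with Exosc6.

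When unfolded proteins build up in the ER, the sensors PERK (encoded by Eif2ak3), ATF6 and IRE1 signal to the nucleus. PERK phosphorylates the initiation factor eIF2, which lowers protein synthesis in general while favouring translation of ATF4, and the kinase GCN2 does the same when amino acids run short. ATF4 then switches on genes for amino acid synthesis, uptake and tRNA charging, whereas ATF6 and the spliced form of XBP1 switch on ER chaperone genes. The RNA levels of target genes are read as a sign of these responses, although a gene may answer to several branches. In T cells, activation brings a large demand for amino acids and for secretory protein folding.

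All cells were of C57BL/6 mice. Sorted naive T cells had been cultured for 3 days on plates coated with antibodies to CD3 and CD28 (1 µg/ml), with TGF-beta (2 ng/ml), and 2 libraries carried each genotype label. MSC stands for musculin, the product of Msc and a transcription factor with a basic helix-loop-helix domain. The labels do not say which portion of the gene was targeted, nor whether the replicates were separate mice or cultures, so the p-values reflect differences among these libraries only, and that spread may be technical. The deposited values, whose unit the labels do not name, were read as FPKM. The authors deposited the replicates in separate tables, one for WT 1 and MSC KO 1 and another for those numbered 2. The libraries of a table are called pair 1 and pair 2 here, for the shared table alone.

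Msc itself went against the labels, at 0.0243 and 0.0178 FPKM in WT 1 and 2 but 0.331 and 0.939 FPKM in MSC KO 1 and 2. Directions below are therefore those of the libraries labelled MSC KO. Depth, estimated from the step between low values, was 25500000 to 35000000 fragments per library, and the tested gene of the set with the fewest fragments, Dnajb9, still had an estimated 190 or more in each library. The summed level of 9 T cell markers was 1795 to 1963 FPKM. All 6 myeloid markers found were under 1 FPKM in every library, and so were 5 of 6 B cell markers and 3 of 4 plasma cell markers found. The 2 CD8 markers differed from each other, Cd8a being at most 1.90 FPKM and lower in MSC KO in both pairs, and Cd8b1 at 8.56 to 9.75 FPKM in 3 libraries and 19.1 FPKM in MSC KO 2. Of 6 Treg markers, Foxp3, the defining factor, was at 62.8 and 66.0 FPKM in WT but at 2.97 and 7.05 FPKM in MSC KO, and Ikzf2 and Lrrc32 were also lower in both pairs. Ctla4 and Tnfrsf18 were higher in both and Il2ra differed in sign, so that the summed level of the list was 1077 and 1110 FPKM in WT against 1305 and 1241 FPKM in MSC KO. The part of these markers in the results below was not tested. The libraries labelled MSC KO differed more from each other (median absolute log2 difference 0.171 over all genes tested) than did those labelled WT (0.067).

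The set was strongly expressed. Its median WT level was 59.0 FPKM against 13.0 FPKM for all genes tested. In WT the highest levels were those of Ddit4 (346 and 352 FPKM), Phgdh (322 and 322 FPKM), Calr (214 and 220 FPKM) and Atf4 (210 and 209 FPKM), and the lowest among those tested were those of Atf6 and Dnajb9, both under 4 FPKM in all 4 libraries. Slc7a11, outside the filter, was at 0.148 to 0.162 FPKM.

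**Figure D1:**
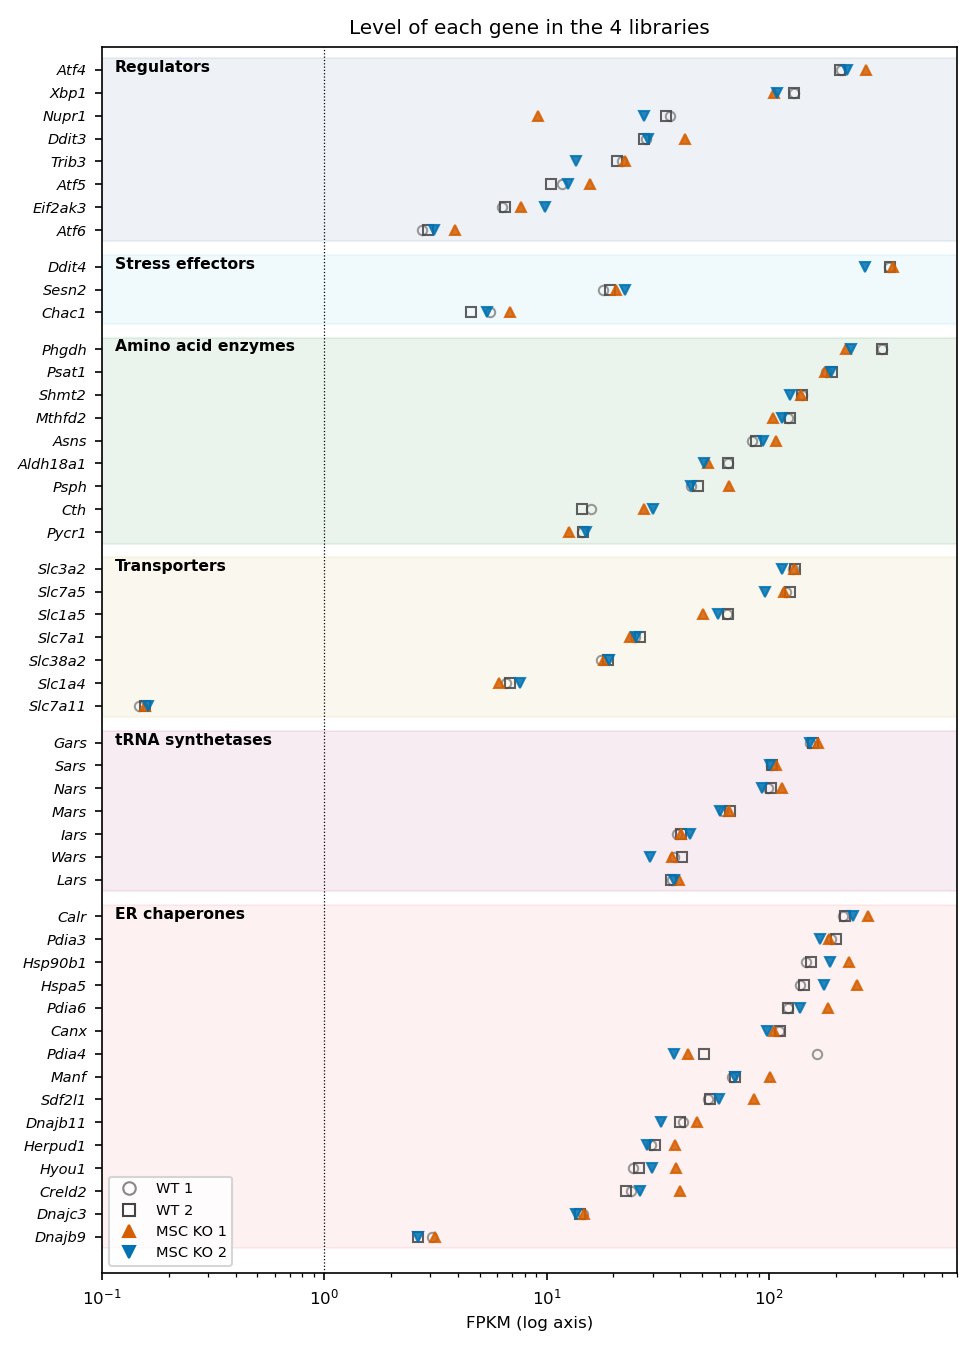
Level of 49 genes of the set in FPKM on a log axis, 1 point per library, grouped by role and ordered by WT level within a group. The dotted line marks 1 FPKM. The 2 WT symbols lie farthest apart for Pdia4 (164 and 50.9 FPKM), and the triangle of MSC KO 1 lies to the right of that of MSC KO 2 for all 15 ER chaperones.

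No gene of the set passed the adjusted threshold of 0.05 when MSC KO was compared with WT (limma on log2(FPKM + 1), table as a block, adjusted over all genes), a fit in which 1 of 10603 genes did (0.00943%). At an unadjusted p under 0.05 there were 8 of 48 (16.7%), against 20.4% of all genes tested. These were Cth, Hspa5, Hsp90b1, Eif2ak3 and Atf5, which were higher in MSC KO (5 genes, 10.4%, against 9.20% of all genes), and Phgdh, Aldh18a1 and Xbp1, which were lower (3 genes, 6.25%, against 11.2%). The differences below therefore did not pass the adjusted test, and their sizes are given as measured. In the authors' deposited tables, which set 1 library against 1, no gene of the set was marked significant, against 0.632% of all genes tested in pair 1 and 0.556% in pair 2. In bulk RNA, fewer cells of a type and less RNA per cell cannot be told apart.

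In MSC KO, 20 of 48 genes (41.7%) were higher in both pairs, against 31.2% of all genes tested, and 14 (29.2%) were lower in both, against 37.5%. The other 14 went in opposite directions (29.2%, against 30.9%). With libraries rescaled to the same sum, 18 of 48 were higher and 18 lower in both, against 26.5% and 43.5% of all genes tested. Both MSC KO libraries lay above both WT libraries for 17 genes (35.4%, against 26.6% of all genes) and below both for 12 (25.0%, against 32.5%). Without MSC KO 1, 20 of 48 (41.7%, against 40.4% of all genes) were above both WT libraries and 23 (47.9%, against 47.1%) below both, which are shares near the background. Without MSC KO 2 these were 29 (60.4%, against 41.6%) and 16 (33.3%, against 46.4%).

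Sizes differed between the pairs, and the difference was farther from 0 in pair 1 for 30 of 48 genes (62.5%, against 51.6% of all genes). In pair 1, 16 of 48 genes (33.3%) were higher in MSC KO by at least 0.32, against 15.8% of all genes. That size, on the log2(FPKM + 1) scale, is 1.25-fold of FPKM + 1. In pair 2 only Cth and Eif2ak3 (4.17%) reached that size, against 14.1%. Lower by as much were 4 genes (8.33%, against 15.4%) in pair 1 and 7 (14.6%, against 14.9%) in pair 2. Only Cth was higher by that size in both pairs (7.60% of all genes were), and Pdia4 and Phgdh were lower by it in both (7.77% of all genes were). The MSC KO libraries lay farther apart than the WT libraries for 45 of 48 genes, a larger share than the 75.8% of all genes tested.

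**Figure D2:**
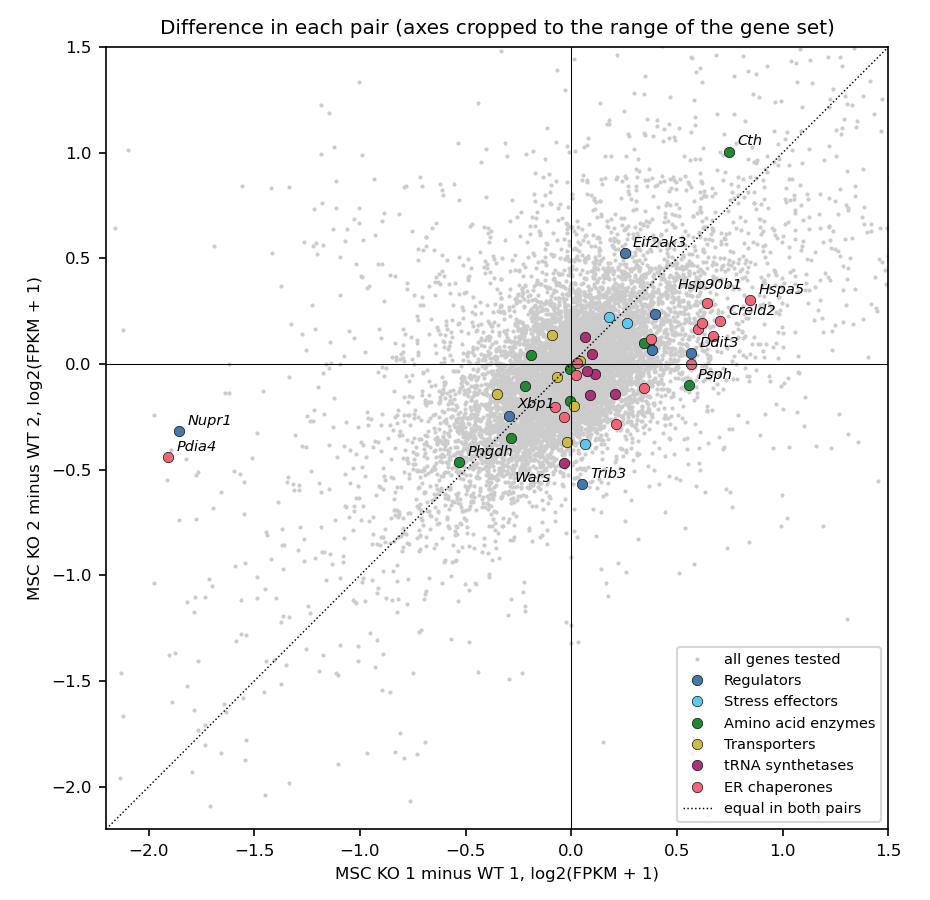
Difference between MSC KO and WT in pair 1 (horizontal axis) and pair 2 (vertical axis), on the log2(FPKM + 1) scale, for the 48 genes of the set in colour by role and for all genes tested in grey. Most ER chaperones lie right of the dotted line of equal differences, while Cth and Eif2ak3 lie above it and Phgdh and Xbp1 on or near it.

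Of the 8 regulators, 5 were higher in both pairs (62.5%, against 31.2% of all genes) and 2 lower (25.0%, against 37.5%). Their median difference was 0.23 on the log2(FPKM + 1) scale, against -0.02 for all genes. Their median was 0.31 in pair 1 and 0.06 in pair 2. Atf4 (chr15:80085613-80087971, mm9 here and below), which encodes the transcription factor common to both responses, was at 210 and 272 FPKM in pair 1 and 209 and 224 FPKM in pair 2, WT first. Both MSC KO libraries were above both WT libraries, with most of the difference in pair 1 (0.24 ± 0.11, SE, adjusted p = 0.343, limma). The difference in Atf4 was 0.10 without MSC KO 1 and 0.37 without MSC KO 2. ATF4 is controlled mainly at translation, which RNA levels do not record.

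Atf5, a close relative of Atf4 that is likewise translated under stress, went the same way, at 11.7 and 15.7 FPKM in pair 1 and 10.4 and 12.5 FPKM in pair 2, WT first (0.32 ± 0.10, SE, adjusted p = 0.230, limma). Without MSC KO 1 that difference was 0.16 and without MSC KO 2 it was 0.47. Eif2ak3 (chr6:70794520-70855234), the gene of the sensor PERK, was at 6.32 and 6.51 FPKM in WT against 7.71 and 9.80 FPKM in MSC KO. The groups did not overlap, and MSC KO 2 was the higher of the MSC KO libraries (0.39 ± 0.12, SE, adjusted p = 0.226, limma, and 0.23 without MSC KO 2). Atf6, the gene of another sensor, was at 2.74 and 2.93 FPKM in WT against 3.88 and 3.12 FPKM in MSC KO, and its small difference in pair 2 had the opposite sign after quantile normalization.

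Ddit3 encodes CHOP, a transcription factor tied to cell death under prolonged ER stress. It was at 28.1 and 27.5 FPKM in WT against 42.1 and 28.6 FPKM in MSC KO. MSC KO 1 was far above both WT libraries and MSC KO 2 just above them, with a difference of 0.57 in pair 1 and 0.05 in pair 2 (fitted 0.31 ± 0.17, SE, adjusted p = 0.385, limma). Ddit3 and Mars share 1 locus in the tables (chr10:126727850-126748840).

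Xbp1 (chr11:5420969-5425899) encodes a factor whose spliced form activates chaperone genes, several of which were higher in MSC KO, yet Xbp1 itself was lower. It was at 129 FPKM in each WT library and at 105 and 109 FPKM in MSC KO 1 and 2, so that both pairs gave nearly the same lower level (-0.27 ± 0.09, SE, adjusted p = 0.240, limma). Gene-level FPKM does not separate spliced from unspliced Xbp1. Trib3, a pseudokinase gene that CHOP and ATF4 activate, was at 21.8 and 22.6 FPKM in pair 1 and 20.6 and 13.6 FPKM in pair 2, WT first, so its pairs disagreed in sign.

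Nupr1 (chr7:133766760-133768980) encodes a small stress-induced chromatin protein and had the largest fitted difference in the set after the chaperone gene Pdia4. It was at 35.7 and 34.4 FPKM in WT 1 and 2, against 9.16 and 27.4 FPKM in MSC KO 1 and 2. Both MSC KO libraries were below WT, by 3.90-fold in pair 1 and 1.25-fold in pair 2 (-1.09 ± 0.43, SE, adjusted p = 0.289, limma). The value rested on MSC KO 1, since without it the difference was -0.34 and without MSC KO 2 it was -1.83. Nupr1 was also the gene of the set with the lowest q in the authors' deposited table for pair 1, at 0.274.

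The stress effectors showed small differences. Chac1, whose product degrades glutathione, was at 5.54 and 6.87 FPKM in pair 1 and 4.59 and 5.40 FPKM in pair 2, WT first (0.23 ± 0.10, SE, adjusted p = 0.311, limma). Its groups overlapped, because MSC KO 2 lay below WT 1, and the difference was 0.08 without MSC KO 1, 0.38 without MSC KO 2 and 0.12 without WT 2. Sesn2, which encodes a leucine sensor acting on mTORC1, was at 18.0 and 19.3 FPKM in WT against 20.5 and 22.6 FPKM in MSC KO (0.20 ± 0.09, SE, adjusted p = 0.318, limma, and 0.13 without MSC KO 2). Ddit4, an inhibitor of mTORC1 signalling, was at 346 and 362 FPKM in pair 1 and 352 and 270 FPKM in pair 2, and so differed in sign.

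The amino acid enzymes, many of them ATF4 targets, showed no common direction. Of 9 tested, 2 were higher in both pairs (22.2%, against 31.2% of all genes) and 5 were lower (55.6%, against 37.5%). The other 2 differed in sign, and the median was -0.08. Cth (chr3:157557210-157588030) had the lowest adjusted p of the set. It encodes cystathionine gamma-lyase, which makes cysteine from cystathionine, and was at 15.9 and 14.4 FPKM in WT 1 and 2, against 27.3 and 30.0 FPKM in MSC KO 1 and 2. The MSC KO libraries were clear of WT in both pairs, 1.72-fold and 2.08-fold higher (0.88 ± 0.11, SE, adjusted p = 0.130, limma). Without the table as a block the adjusted p was 0.0483. In the authors' deposited table for pair 2 Cth had the lowest q of the set, at 0.526.

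The enzymes of serine synthesis, which starts from a glycolytic intermediate, differed from each other. Phgdh (chr3:98117093-98143892), the gene of its entry enzyme phosphoglycerate dehydrogenase, was at 322 FPKM in each WT library and at 223 and 233 FPKM in MSC KO 1 and 2. MSC KO was lower by 1.45-fold and 1.38-fold, a like amount in each pair (-0.50 ± 0.09, SE, adjusted p = 0.152, limma). The next enzyme gene, Psat1, was at 180 and 179 FPKM in pair 1 and 192 and 189 FPKM in pair 2, WT first, which is 0.995 and 0.984 of WT. Psph, the last step, was at 44.8 and 66.4 FPKM in pair 1 but 47.9 and 44.6 FPKM in pair 2.

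Serine feeds one-carbon metabolism in mitochondria through Shmt2 and Mthfd2. Shmt2 was at 140 and 140 FPKM in pair 1 and 141 and 125 FPKM in pair 2, WT first. Mthfd2 was at 122 and 124 FPKM in WT against 105 and 115 FPKM in MSC KO, with no overlap of the groups (-0.16 ± 0.09, SE, adjusted p = 0.405, limma, and -0.09 without MSC KO 1). Among the proline enzymes, Aldh18a1 (chr19:40624746-40662953), whose product takes the first step from glutamate, was at 65.2 and 65.4 FPKM in WT against 53.3 and 51.1 FPKM in MSC KO. It was lower by 1.22-fold and 1.28-fold (-0.32 ± 0.09, SE, adjusted p = 0.214, limma), whereas Pycr1, the last step, was at 14.5 and 12.6 FPKM in pair 1 and 14.6 and 15.1 FPKM in pair 2. Asns, asparagine synthetase and a standard ATF4 target, was at 84.1 and 87.5 FPKM in WT against 107 and 93.9 FPKM in MSC KO (0.22 ± 0.11, SE, adjusted p = 0.358, limma, and 0.13 without MSC KO 1).

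Promoter windows of the set, from 250 bases before to 50 after the transcription start (RefSeq, GRCm38.p6), were searched on both strands for the ATF4 element TGATGNAA. Windows were present for 40 of the 50 genes. The element stood in 10 of 30 windows of genes other than chaperones (33.3%) and in 1 of 13 chaperone windows (7.69%), against 3.97% of 32851 windows of all genes. Many of the genes were listed as ATF4 targets, so these shares describe the list and are no result of these libraries. The stretches below, upstream of the start and read along each gene's own strand, carry it in capitals, either as TGATGNAA or as its reverse complement, with the variable base in lower case.
Asns, chr6:7693210-7693252 (-): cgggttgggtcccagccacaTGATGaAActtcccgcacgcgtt
Chac1, chr2:119351029-119351076 (+): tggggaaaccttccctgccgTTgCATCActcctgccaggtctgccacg
Nupr1, chr7:126625553-126625600 (-): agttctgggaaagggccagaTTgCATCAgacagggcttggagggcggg
Pycr1, chr11:120643824-120643871 (-): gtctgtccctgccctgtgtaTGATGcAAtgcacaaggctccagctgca
Gars, chr6:55037951-55037998 (+): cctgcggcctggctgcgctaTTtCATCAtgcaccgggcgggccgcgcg
Slc7a11, chr3:50443633-50443699 (-): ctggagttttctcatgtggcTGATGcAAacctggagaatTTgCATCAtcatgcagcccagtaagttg
The element of Asns lies near the start site and has the letters of the amino acid response element described for asparagine synthetase genes. The other genes with a match were Trib3, Slc1a4, Iars and Aars, and among the chaperones Herpud1, shown further on. Levels of the genes with a match did not share a direction, since Asns, Chac1 and Iars were higher in both pairs, Nupr1 was lower in both, and Trib3, Pycr1, Slc1a4 and Gars differed in sign. A match of letters is no measure of binding.

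The transporters stayed near WT, with a median of -0.08 over the 6 tested, 1 higher in both pairs and 3 lower, or 0 and 5 when libraries were rescaled to the same sum. Slc7a5 and Slc3a2 encode the 2 chains of the large neutral amino acid exchanger LAT1. Slc7a5 was at 119 and 124 FPKM in WT against 117 and 95.5 FPKM in MSC KO 1 and 2, so that MSC KO 2 stood apart (-0.19 ± 0.13, SE, adjusted p = 0.464, limma). Slc3a2 was at 129 and 132 FPKM in WT against 130 and 114 FPKM in MSC KO 1 and 2, again lowest in MSC KO 2 but with opposite signs in the pairs. Slc1a5, the glutamine transporter gene, was at 64.6 and 65.2 FPKM in WT against 50.4 and 59.1 FPKM in MSC KO, below WT in both pairs (-0.25 ± 0.11, SE, adjusted p = 0.311, limma). The difference in Slc1a5 was -0.13 without MSC KO 1, while that in Slc7a5 was -0.34 without MSC KO 1 and -0.05 without MSC KO 2. The arginine transporter gene Slc7a1 (23.8 to 26.4 FPKM) and Slc38a2 (17.6 to 19.0 FPKM), a carrier of small neutral amino acids, had fitted differences of -0.07 ± 0.09 and 0.03 ± 0.09 (SE, adjusted p = 0.708 and 0.881, limma). That of Slc7a1 was -0.03 without MSC KO 1 and -0.11 without MSC KO 2. The small difference in Slc38a2 became -0.01 when libraries were rescaled to the same sum. Slc1a4, a serine and alanine carrier, was at 6.11 to 7.61 FPKM with opposite signs in the pairs.

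The tRNA synthetases, which charge tRNAs with their amino acids, were near WT. Their median was 0.03 over the 7 tested, 0.09 in pair 1 and -0.05 in pair 2. Between the pairs 4 of 7 differed in sign (57.1%, against 30.9% of all genes). The median was -0.01 when libraries were rescaled to the same sum. Lars, Iars and Wars were the members with the same sign in both. Wars, for tryptophan, was at 37.5 and 40.6 FPKM in WT against 36.6 and 29.1 FPKM in MSC KO 1 and 2, and the lower value of MSC KO 2 made the difference (-0.25 ± 0.15, SE, adjusted p = 0.418, limma), which was -0.09 without it and -0.41 without MSC KO 1. Iars, for isoleucine, was at 38.5 and 40.1 FPKM in WT against 40.3 and 43.9 FPKM in MSC KO (0.10 ± 0.09, SE, adjusted p = 0.581, limma, and 0.16 and 0.04 without MSC KO 1 and 2). Lars, for leucine, was at 36.8 and 36.3 FPKM in WT against 39.5 and 37.5 FPKM in MSC KO (0.07 ± 0.09, SE, adjusted p = 0.688, limma, and 0.03 and 0.11 without MSC KO 1 and 2). Gars, Sars, Nars and Mars, for glycine, serine, asparagine and methionine, were each higher in MSC KO 1 and lower in MSC KO 2 than in the WT library of the same pair. The joint row of Aars and Exosc6 was at 68.3 and 79.8 FPKM in pair 1 and 64.6 and 68.1 FPKM in pair 2, WT first.

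Higher levels of the ER chaperones were found mainly in 1 library. Of 15 genes, 8 were higher in both pairs, 3 lower and 4 of opposite sign, with a median of 0.25. In pair 1 the median was 0.38 and 9 of 15 (60.0%, against 15.8% of all genes) were higher by at least 1.25-fold of FPKM + 1. In pair 2 the median was 0.00 and none reached that size, against 14.1% of all genes. All 15 were at a higher level in MSC KO 1 than in MSC KO 2, against 19 of the other 33 genes tested in the set. The share of all genes with that order was not taken. Compared with both WT libraries, 7 of the 15 (46.7%, against 40.4% of all genes) were higher and 6 (40.0%, against 47.1%) lower without MSC KO 1, with a median of 0.02. Without MSC KO 2, 12 (80.0%, against 41.6%) were higher and 3 lower (46.4% of all genes were), with a median of 0.36. MSC KO 1 was also the library in which rows without a gene symbol held the largest share of summed FPKM, 54.1% against 49.9% to 53.2% in the others. The part of that share in the result was not tested.

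Hspa5 (chr2:34627609-34632049) encodes BiP, the ER Hsp70 that binds unfolded proteins and holds the stress sensors inactive. It was at 138 and 143 FPKM in WT 1 and 2, against 249 and 177 FPKM in MSC KO 1 and 2. The groups did not overlap, and MSC KO was 1.81-fold and 1.23-fold higher (0.57 ± 0.17, SE, adjusted p = 0.225, limma). Without MSC KO 1 the difference was 0.33 and without MSC KO 2 it was 0.82. In the authors' deposited table for pair 1 the q of Hspa5 was 0.308.

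Hsp90b1 (chr10:86153585-86168189), the gene of the ER Hsp90, followed the same order at 147 and 154 FPKM in WT against 230 and 188 FPKM in MSC KO, 1.56-fold and 1.22-fold higher (0.46 ± 0.13, SE, adjusted p = 0.212, limma). Creld2 (chr15:88650075-88657111), an ER-resident factor induced by ER stress, was at 24.0 and 22.8 FPKM in WT against 39.8 and 26.4 FPKM in MSC KO (0.45 ± 0.16, SE, adjusted p = 0.263, limma). Hyou1, a large chaperone that acts with BiP, was at 24.5 and 26.0 FPKM in WT against 38.3 and 29.8 FPKM in MSC KO. In all 3 genes MSC KO 1 was highest, MSC KO 2 next and both WT libraries lowest. Without MSC KO 1 the difference was 0.32 in Hsp90b1 and 0.17 in Creld2, and without MSC KO 2 it was 0.74 in Creld2.

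That order held for 3 more of the genes. Pdia6, a disulphide isomerase, was at 122 and 122 FPKM in WT against 185 and 137 FPKM in MSC KO. Sdf2l1, a partner of the ER Hsp40 proteins, was at 53.1 and 54.2 FPKM in WT against 85.2 and 59.6 FPKM. Calr, calreticulin, which folds glycoproteins, was at 214 and 220 FPKM in WT against 278 and 240 FPKM.

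In other chaperones MSC KO 1 alone was high. Manf, a secreted ER stress protein, was at 67.9 and 70.2 FPKM in WT against 101 and 70.1 FPKM in MSC KO 1 and 2.

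Herpud1, which helps to degrade misfolded ER proteins, was at 29.5 and 30.6 FPKM in WT against 37.7 and 28.3 FPKM in MSC KO 1 and 2. Dnajb11, an Hsp40 partner of BiP, was at 40.9 and 39.9 FPKM in WT against 47.5 and 32.6 FPKM in MSC KO 1 and 2. Each was thus highest in MSC KO 1 and lowest in MSC KO 2. Dnajc3 (13.6 to 14.8 FPKM), an Hsp40 that also inhibits PERK, and Dnajb9 (2.64 to 3.14 FPKM), an Hsp40 that acts on the sensor IRE1, varied little. Dnajb9 was higher in both pairs by at most 0.03, and lower in both when libraries were rescaled to the same sum or quantile normalized.

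The chaperones that were lower in both pairs were Pdia3, Pdia4 and Canx. Canx, calnexin, the membrane-bound partner of calreticulin, was at 111 and 113 FPKM in WT against 106 and 97.7 FPKM in MSC KO. Pdia3, a disulphide isomerase that works with both lectins, was at 190 and 201 FPKM in WT against 185 and 169 FPKM in MSC KO. Pdia4 (chr6:47746139-47763511), another disulphide isomerase, was at 164 FPKM in WT 1 but 50.9 FPKM in WT 2, with 43.1 and 37.2 FPKM in MSC KO 1 and 2. WT 1 stood apart, by 1.67 on the log2 scale from WT 2, where the next largest gap between WT libraries in the set was 0.23, in Chac1. The fitted difference was -1.17 ± 0.41 (SE, adjusted p = 0.255, limma), but -0.34 without WT 1 and -2.01 without WT 2. Without Pdia4 the median of the other 14 chaperones was 0.27.

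The promoters of the chaperone genes were searched for the ER stress response element (ERSE), which binds ATF6 and XBP1 together with NF-Y and reads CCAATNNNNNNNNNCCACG, for its variant ERSE-II, ATTGGNCCACG, and for the XBP1 site TGACGTGG (UPRE). ERSE stood in 7 of 13 chaperone windows (53.8%) and in none of the 30 other windows of the set, against 0.119% of all windows. The genes were listed as members of these responses, so the shares of motifs describe the list and are no result of these libraries. Outside the set, ERSE also stood in 2 of 43 windows of the ER import and degradation genes read further on (4.65%), those of Syvn1 and Derl3. ERSE-II stood in 2 of 13 chaperone windows, those of Herpud1 and Dnajb11, against 0.0365% of all windows. The site TGACGTGG was in none of the 43 windows of the set and in 0.676% of all windows. No match of one motif overlapped that of another. The stretches below show the 7 ERSE promoters and that of Herpud1, which holds both an ERSE-II and an ATF4 element, with the fixed bases in capitals in either orientation.
Hspa5, chr2:34772003-34772065 (+): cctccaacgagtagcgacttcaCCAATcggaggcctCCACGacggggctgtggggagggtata
Hsp90b1, chr10:86705511-86705678 (-): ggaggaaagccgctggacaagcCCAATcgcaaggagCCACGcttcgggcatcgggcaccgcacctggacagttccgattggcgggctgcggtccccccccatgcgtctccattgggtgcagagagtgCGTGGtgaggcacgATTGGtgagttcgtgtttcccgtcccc
Calr, chr8:84847053-84847115 (-): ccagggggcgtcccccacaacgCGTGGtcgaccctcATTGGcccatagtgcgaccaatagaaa
Pdia6, chr12:17266469-17266531 (+): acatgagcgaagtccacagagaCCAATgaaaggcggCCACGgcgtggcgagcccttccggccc
Creld2, chr15:88819498-88819560 (+): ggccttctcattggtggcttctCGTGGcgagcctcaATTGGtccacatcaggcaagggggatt
Canx, chr11:50325778-50325840 (-): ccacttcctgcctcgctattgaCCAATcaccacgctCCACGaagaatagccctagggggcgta
Dnajc3, chr14:118937805-118937867 (+): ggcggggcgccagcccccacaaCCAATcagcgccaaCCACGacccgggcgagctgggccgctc
Herpud1, chr8:94386295-94386409 (+): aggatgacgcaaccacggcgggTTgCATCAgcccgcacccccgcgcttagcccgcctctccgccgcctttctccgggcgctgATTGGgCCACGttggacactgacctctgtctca
Hsp90b1 carries 2 matches in opposite orientations. Of the 7 genes with an ERSE match, Hspa5, Hsp90b1, Calr, Pdia6 and Creld2 were higher in both pairs, as were 31.2% of all genes tested. Canx was lower in both, as were 37.5% of all genes, and Dnajc3 differed in sign. Herpud1 and Dnajb11 were higher in pair 1 and lower in pair 2. Of the chaperones with no match in their window, Sdf2l1 and Dnajb9 were higher in both, and Pdia3 and Pdia4 lower in both. Hyou1, higher in both, and Manf, of opposite sign, had no window. Whether the motif goes with the level was not tested.

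**Figure D3:**
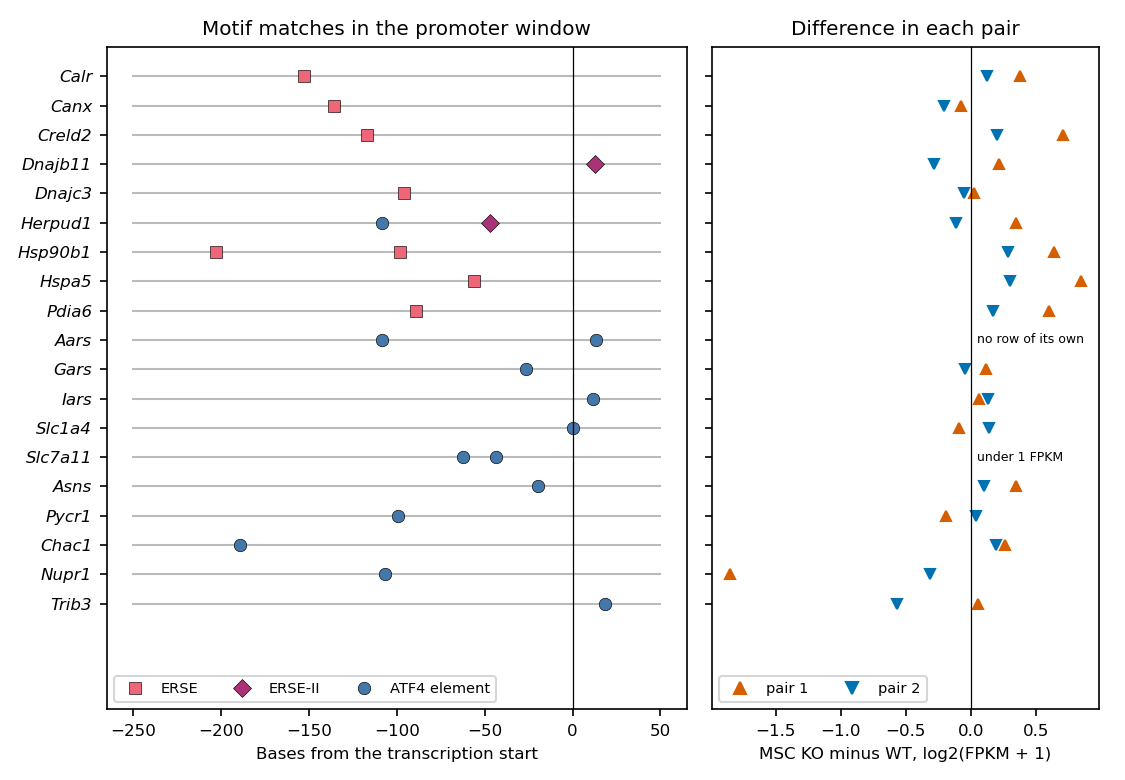
Left, position of each motif match (symbol at its centre) in the promoter windows of the genes of the set, in bases from the transcription start. Right, difference between MSC KO and WT in pair 1 and pair 2 for the same genes on the log2(FPKM + 1) scale. Within the set, ERSE matches (squares) lie upstream in chaperone genes only. Of those 7 genes, 5 have both triangles right of 0. Of all 15 chaperones, 8 were higher in both pairs, as were 31.2% of all genes tested.

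Other genes of the same pathways were read beside the set, as lists with no test of their own. Among 20 other stress regulators, 10 were higher in both pairs and 5 lower, with a median of 0.23. Atf3, a transcription factor downstream of ATF4, was at 6.83 and 6.79 FPKM in WT against 31.5 and 20.6 FPKM in MSC KO (1.76 ± 0.18, SE, adjusted p = 0.120, limma). Creb3l2, a relative of ATF6 in the ER membrane, was at 2.15 and 2.40 FPKM in WT against 5.61 and 7.59 FPKM in MSC KO (1.20 ± 0.13, SE, adjusted p = 0.120, limma). Both genes were clear of WT in each pair, and by more than Atf4 or Atf6, but they were picked from the list by size. At least 1.25-fold of FPKM + 1 higher in both pairs were 5 of the 20 (25.0%, against 7.60% of all genes). Eif2ak2 and Mbtps1 were lower by that size in both (10.0%, against 7.77%), and Ern1 differed in sign.

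The list of ER import, folding and degradation genes had 40 tested, of which 22 were higher in both pairs and 8 lower, with a median of 0.09. Fkbp11, a prolyl isomerase of secretory cells, was at 3.45 and 7.98 FPKM in pair 1 and 1.78 and 3.41 FPKM in pair 2, WT first, and its groups overlapped although each pair gave a higher MSC KO level (0.84 ± 0.15, SE, adjusted p = 0.152, limma). Dnajc10, an ER reductase, was at 49.0 and 50.7 FPKM in WT against 30.2 and 35.2 FPKM in MSC KO, the opposite of its partner Hspa5 (-0.60 ± 0.10, SE, adjusted p = 0.152, limma). Among 12 other cytosolic synthetases 6 were higher in both pairs and 3 lower, with a median of 0.06, and Farsb, a subunit for phenylalanine, was at 56.2 and 60.2 FPKM in WT against 67.7 and 65.9 FPKM in MSC KO (0.20 ± 0.10, SE, adjusted p = 0.354, limma). Farsa, the other subunit, was at 46.4 and 48.1 FPKM in WT against 53.5 and 52.5 FPKM in MSC KO (0.16 ± 0.09, SE, adjusted p = 0.399, limma).

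Of 20 other amino acid enzymes 7 were higher in both pairs (35.0%, against 31.2% of all genes) and 8 lower (40.0%, against 37.5%). Their median was 0.00. Aldh1l2, a mitochondrial folate enzyme, was at 1.87 and 1.86 FPKM in WT against 2.88 and 2.81 FPKM in MSC KO (0.42 ± 0.13, SE, adjusted p = 0.231, limma). Among 10 other transporters 5 were higher in both pairs and 4 lower. Slc43a2, which carries large neutral amino acids as Slc7a5 does, was at 7.63 and 7.53 FPKM in WT against 4.91 and 5.09 FPKM in MSC KO (-0.52 ± 0.10, SE, adjusted p = 0.152, limma). Slc25a22, a mitochondrial glutamate carrier, was at 8.19 and 9.22 FPKM in WT against 12.2 and 13.1 FPKM in MSC KO (0.49 ± 0.09, SE, adjusted p = 0.152, limma). None of these passed the adjusted threshold (limma).

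**Figure D4:**
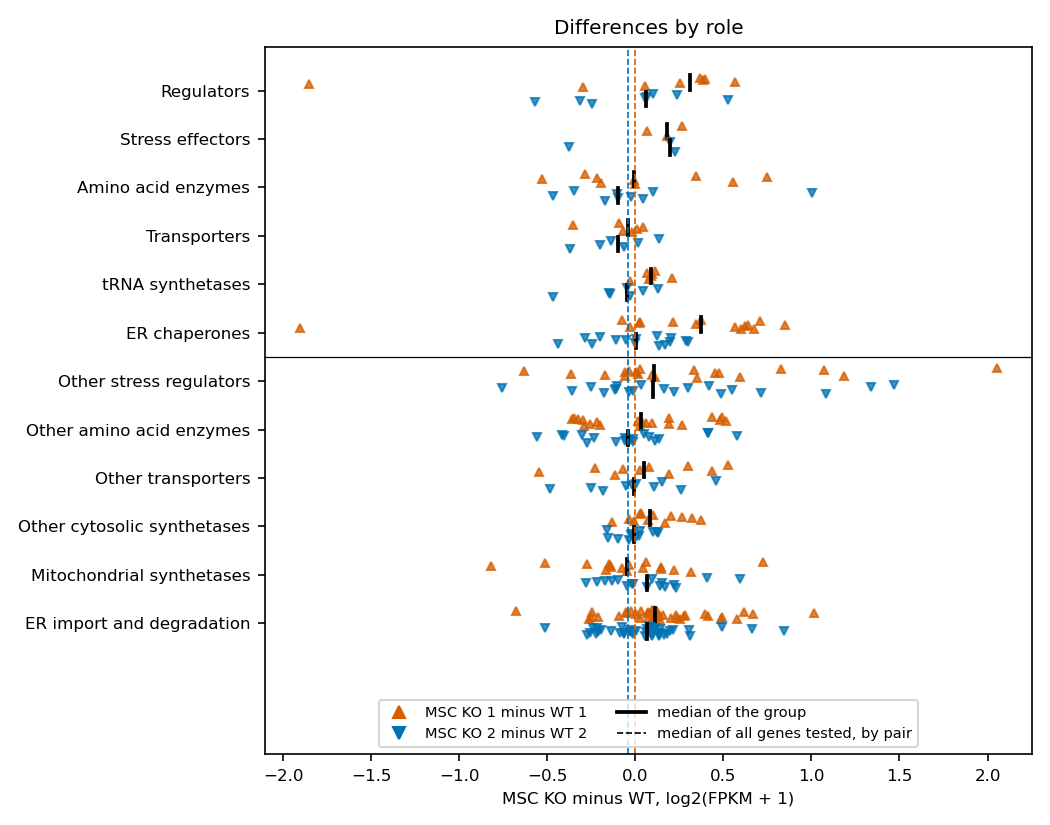
Difference between MSC KO and WT for each tested gene by role, on the log2(FPKM + 1) scale, in pair 1 (upward triangles) and pair 2 (downward triangles). Above the line are the role groups of the set and below it the other lists; black bars are medians and dashed lines the medians of all genes (0.00 and -0.04). The ER chaperones have the widest gap between the medians of the 2 pairs, 0.38 against 0.00.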

How the data were processed

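The deposited data are 2 gene-level tables for 4 RNA-seq libraries, 1 WT and 1 MSC KO library in each. The aligner was TopHat and the genome mm9, per the submitters' processing notes, and its version and the annotation used are not stated in the labels. The unit is not named, and the values deposited by the authors are taken to be FPKM from the table layout, with the authors' p-value and q-value per gene. Whether the tables were normalized together is not stated, so differences were taken within a table. The members and lists were chosen with earlier results of these data known. Rows without a symbol (1925 and 2325, holding 49.9% to 54.1% of summed FPKM) were left out, a repeated symbol was represented by its row of highest mean, and 3 symbols at loci that did not overlap were dropped. Positions are those of the tables (mm9), and the longest of them end in a rounded 0. Promoter sequences are RefSeq (GRCm38.p6).

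The 2 genotypes were compared by limma 3.58.1 (R 4.3.3) on log2(FPKM + 1) for genes with a mean of at least 1 FPKM, blocked by table, with a trended prior, two-sided, Benjamini-Hochberg over 10603 genes, threshold 0.05. The residual had 1 degree of freedom and the prior 2.36. The fit was tested on simulated data. Files were read with pandas 2.3.3 in Python 3.11.15. Depth was estimated with transcript lengths of GENCODE M21. Full statistics were given for up to 4 genes per role group ranked by the smaller of their within-table differences, where the signs were the same, and for Atf4, Ddit3, Xbp1, Hspa5, Asns and Slc7a5, and for up to 2 genes of each other list. One gene that this rule takes is not reported here. Alternatives were another pseudocount, filters, scalings, no block, a prior without trend, small RNA symbols left out, summed repeated rows and each library left out.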

Additional observations from a re-analysis of the deposited data

How the results depend on the processing

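The count of 1 called gene was 0 with no filter on low values, 0 with quantile normalization, 0 with a prior without trend, 3 with a mean of at least 5 FPKM, 7 with libraries rescaled to the same sum and 26 with small RNA symbols left out. With no replicate block it was 153, and Cth alone of the set was called (1 gene, adjusted p = 0.0483, limma). The numbers do not pair the samples (correlation of deviations 0.0589), so the block stands for the table only. Rescaling gave a median of 0.16 for the stress effectors and -0.12 for the transporters, and turned the difference of Slc38a2 to -0.011.

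Leaving out 1 library gave 0 to 2672 called genes and 0 to 20 called in the set. With WT 1 or WT 2 left out none of the set was called. Without MSC KO 1 there were 13 (27.1%, against 21.7% of all genes), and without MSC KO 2 there were 20 (41.7%, against 25.2%), in fits whose spread comes from the WT libraries alone. Both fits shared those WT libraries, so a gene called in both was not called independently. In the blocked fit of all libraries none of the set was called. With 1 library left out, genes of the set whose remaining comparisons were all upward ranged from 19 to 29 and all downward from 12 to 23, while the shares of all genes ranged from 30.2% to 41.6% and from 36.5% to 47.1%. Medians ranged from 0.07 to 0.29 for regulators, 0.082 to 0.156 for stress effectors, -0.08 to -0.05 for enzymes, -0.11 to -0.05 for transporters, -0.03 to 0.07 for synthetases and 0.02 to 0.36 for chaperones. The difference of Slc38a2 ranged from -0.019 to 0.076.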

Other observations

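Mitochondrial tRNA synthetases, which serve translation inside mitochondria, showed no common direction. Of 17 tested, 5 (29.4%, against 31.2% of all genes) were higher in MSC KO in both pairs and 6 (35.3%, against 37.5%) lower. Their median was 0.01. Cars2, for cysteine, was at 7.26 and 6.17 FPKM in WT against 12.6 and 9.84 FPKM in MSC KO (0.66 ± 0.10, SE, adjusted p = 0.139, limma). Lars2, for leucine, was at 297 and 300.1 FPKM in WT against 167 and 247 FPKM in MSC KO, the lowest in MSC KO 1 (-0.55 ± 0.17, SE, adjusted p = 0.230, limma). Cars2 and Lars2 were thus on opposite sides of WT in both pairs.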
